A study of Rattus norvegicus with 6 samples.

Results

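The genes of the proteasome, the protein complex that degrades ubiquitin-tagged proteins, were read in all 6 libraries of a study of insulin on cultured rat brain cells. Rows were taken whose symbol starts with Psma, Psmb, Psmc, Psmd or Psme and a digit, and 44 of the 37183 symbols of the deposited table met this rule. One of them, Psmc3ip, encodes a partner protein with a role in meiotic recombination and no subunit, and was set apart, which left 43 genes. The pseudogene row Psme1-ps1 was left out by the rule. Primary hippocampal astrocytes and primary hippocampal neurons each gave 3 libraries: a control at 0 h, named both saline and untreated in the labels, and cultures after 6 h and after 12 h of 200 nM insulin. Each group was 1 library, so no difference between conditions has a replicate check and no p-value is given. All cultures, controls included, had their medium changed 4 h before treatment. Astrocytes went from 10% to 2% FBS and from 25 to 5 mM glucose, and neurons to serum-free Neurobasal medium with insulin-free B27. Because the controls were taken at 0 h, insulin and further time in the changed medium cannot be told apart.

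The 26S proteasome joins a barrel, the 20S core, to a cap, the 19S regulatory particle. Outer rings of Psma subunits gate the barrel, and inner rings of Psmb subunits hold the catalytic sites: Psmb5 cuts after hydrophobic, Psmb6 after acidic and Psmb7 after basic residues. The Psmc ATPases of the cap unfold a substrate, and the Psmd subunits bind and remove its ubiquitin chain. Under interferon, Psmb8, Psmb9 and Psmb10 replace Psmb5, Psmb6 and Psmb7 in newly built cores, the immunoproteasome, which favours peptides for display on MHC class I. Psme1 and Psme2 (together PA28), Psme3 and Psme4 (PA200) are alternative caps. When proteasome activity falls, the transcription factor NRF1 (Nfe2l1) is known to raise most constitutive subunit genes together through antioxidant response elements.

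The promoters of all 6 catalytic genes are printed here because the constitutive and the immunoproteasome genes are described as pairs. They come from RefSeq, assembly GRCr8, which is a later build than that of the deposited values, and each runs from 250 bases before the annotated start to 50 bases after it. The windows are Psmb5 at chr15:32047330-32047629 on the minus strand, Psmb6 at chr10:55737638-55737937 on the plus strand, Psmb7 at chr3:42827421-42827720 on the minus strand, Psmb8 at chr20:4656982-4657281 on the minus strand, Psmb9 at chr20:4668750-4669049 on the plus strand and Psmb10 at chr19:50743243-50743542 on the minus strand. Capitals mark TGACNNNGC, the core of the antioxidant response element, or GAAA followed by any 2 bases and a second GAAA, the core of the interferon-stimulated response element, each searched on both strands.
Psmb5: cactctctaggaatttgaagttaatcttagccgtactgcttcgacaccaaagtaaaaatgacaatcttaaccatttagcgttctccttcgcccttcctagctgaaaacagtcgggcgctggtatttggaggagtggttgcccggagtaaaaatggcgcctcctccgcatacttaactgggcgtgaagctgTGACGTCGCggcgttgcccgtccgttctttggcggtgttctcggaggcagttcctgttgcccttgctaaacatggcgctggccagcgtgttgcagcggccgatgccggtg
Psmb6: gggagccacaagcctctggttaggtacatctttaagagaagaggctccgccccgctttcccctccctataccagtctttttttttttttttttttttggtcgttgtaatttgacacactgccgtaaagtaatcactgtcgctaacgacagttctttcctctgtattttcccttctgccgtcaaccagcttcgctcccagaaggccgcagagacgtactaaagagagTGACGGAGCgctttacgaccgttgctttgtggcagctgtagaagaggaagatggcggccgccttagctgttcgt
Psmb7: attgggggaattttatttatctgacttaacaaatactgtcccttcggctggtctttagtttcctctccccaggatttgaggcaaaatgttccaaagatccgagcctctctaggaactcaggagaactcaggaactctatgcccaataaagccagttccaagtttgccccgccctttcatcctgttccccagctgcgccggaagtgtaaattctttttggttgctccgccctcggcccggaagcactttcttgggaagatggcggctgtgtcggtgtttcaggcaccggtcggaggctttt
Psmb8: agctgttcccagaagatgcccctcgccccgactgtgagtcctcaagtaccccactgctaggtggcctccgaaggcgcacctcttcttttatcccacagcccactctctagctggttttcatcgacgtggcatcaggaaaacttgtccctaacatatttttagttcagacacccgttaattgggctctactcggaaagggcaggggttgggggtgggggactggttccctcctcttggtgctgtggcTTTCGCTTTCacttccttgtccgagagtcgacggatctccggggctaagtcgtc
Psmb9: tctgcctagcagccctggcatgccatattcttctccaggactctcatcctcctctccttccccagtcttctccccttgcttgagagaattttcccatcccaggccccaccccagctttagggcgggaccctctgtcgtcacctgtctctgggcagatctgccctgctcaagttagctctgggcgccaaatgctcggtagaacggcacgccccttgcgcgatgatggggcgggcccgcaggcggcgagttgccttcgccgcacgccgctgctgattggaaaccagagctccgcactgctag
Psmb10: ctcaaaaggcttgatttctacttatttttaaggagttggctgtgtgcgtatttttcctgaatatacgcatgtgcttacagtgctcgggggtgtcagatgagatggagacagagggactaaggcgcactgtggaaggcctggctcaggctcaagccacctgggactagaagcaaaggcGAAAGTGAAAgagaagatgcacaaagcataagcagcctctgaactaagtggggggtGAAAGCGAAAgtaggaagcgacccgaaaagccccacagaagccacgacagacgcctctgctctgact
Psmb5 and Psmb6 each held 1 antioxidant core, and Psmb8 and Psmb10 held 1 and 2 interferon cores. Psmb7 and Psmb9 held neither motif in this window, and 44 bases of the Psmb9 window are shared with that of Tap1, a peptide transporter gene read from the opposite strand. Of the 38 subunit genes with a promoter in the table, 8 (21.1%) held TGACNNNGC against 12.1% of all 33469 promoters, and 6 (15.8%) held the paired GAAA against 3.92%. The 6 were Psmb8, Psmb10, Psme2, Psma4, Psmb3 and Psmd7. A match to these letters describes the sequence and is not evidence of binding.

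The values are the authors' log2 FPKM, a read level per transcript length and library size, after quantile normalisation, and are printed as FPKM unless a log2 difference is named. Markers of the labelled cell types did not follow the labels closely. The summed level of 8 astrocyte markers was 28.5 to 34.1 FPKM in the 3 astrocyte-labelled libraries and 317 to 354 FPKM in the 3 neuron-labelled ones. The 9 neuron markers summed to 1.57 to 2.53 and 50.8 to 55.8 FPKM, and Slc17a7, of excitatory neurons, was blank in all astrocyte-labelled libraries and at most 0.00378 FPKM in the others. The sum of 7 markers of oligodendrocyte lineage (110 to 117 FPKM) was also high in the neuron-labelled libraries, with Olig1 alone at 78.5 to 85.4 FPKM. Mog and Cspg4 of this list went the other way. Mog was at 1.40 to 1.69 FPKM in the neuron-labelled and 2.01 to 2.21 FPKM in the astrocyte-labelled libraries, and Cspg4 at 0.346 to 0.397 and 1.16 to 1.32 FPKM. The sums of smooth muscle and pericyte markers (422 to 501 FPKM) and fibroblast markers (66.2 to 85.8 FPKM) were high in the astrocyte-labelled ones. Of these markers, 3 of 5 and 2 of 4 reached 1 FPKM there, and Tagln alone was at 353, 372 and 417 FPKM. Myh11 was at most 0.00875 FPKM and Rgs5 at most 0.00798 FPKM there. The libraries are therefore named by their labels below. In such mixed cultures, fewer cells of a type and less RNA per cell cannot be told apart.

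The subunit genes were transcribed at unequal levels, in a similar order in each library. In every library Psmb4, a structural subunit of the inner ring, was the highest, at 17.4, 24.2 and 22.2 FPKM in the astrocyte-labelled control, 6 h and 12 h libraries and 25.2, 29.3 and 30.0 FPKM in the neuron-labelled ones. Psmd2, a cap subunit that receives ubiquitin shuttle proteins, was the highest 19S gene, at 12.5, 13.4 and 14.5 FPKM and 13.8, 15.9 and 18.9 FPKM. The lowest gene of the standard 26S complex, apart from the testis form Psma8, was Psmd14. It encodes the cap's deubiquitinase and was at 0.372, 0.442 and 0.474 FPKM and at 0.364, 0.578 and 0.613 FPKM. Psmb4 thus exceeded Psmd14 by 46.7 to 69.2 times within a library. Both genes have pseudogene symbols in RefSeq, so this ratio is uncertain where reads match a copy. Across the 31 genes of the 20S core and 19S particle with a value in every library, Pearson's r of the log2 levels was 0.981 between the 2 control libraries, against 0.478 across the 7754 genes that had values everywhere and reached 1 FPKM somewhere. These correlations are across genes of single libraries, and the subunits share gene length and sequence between the libraries.

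**Figure D1:**
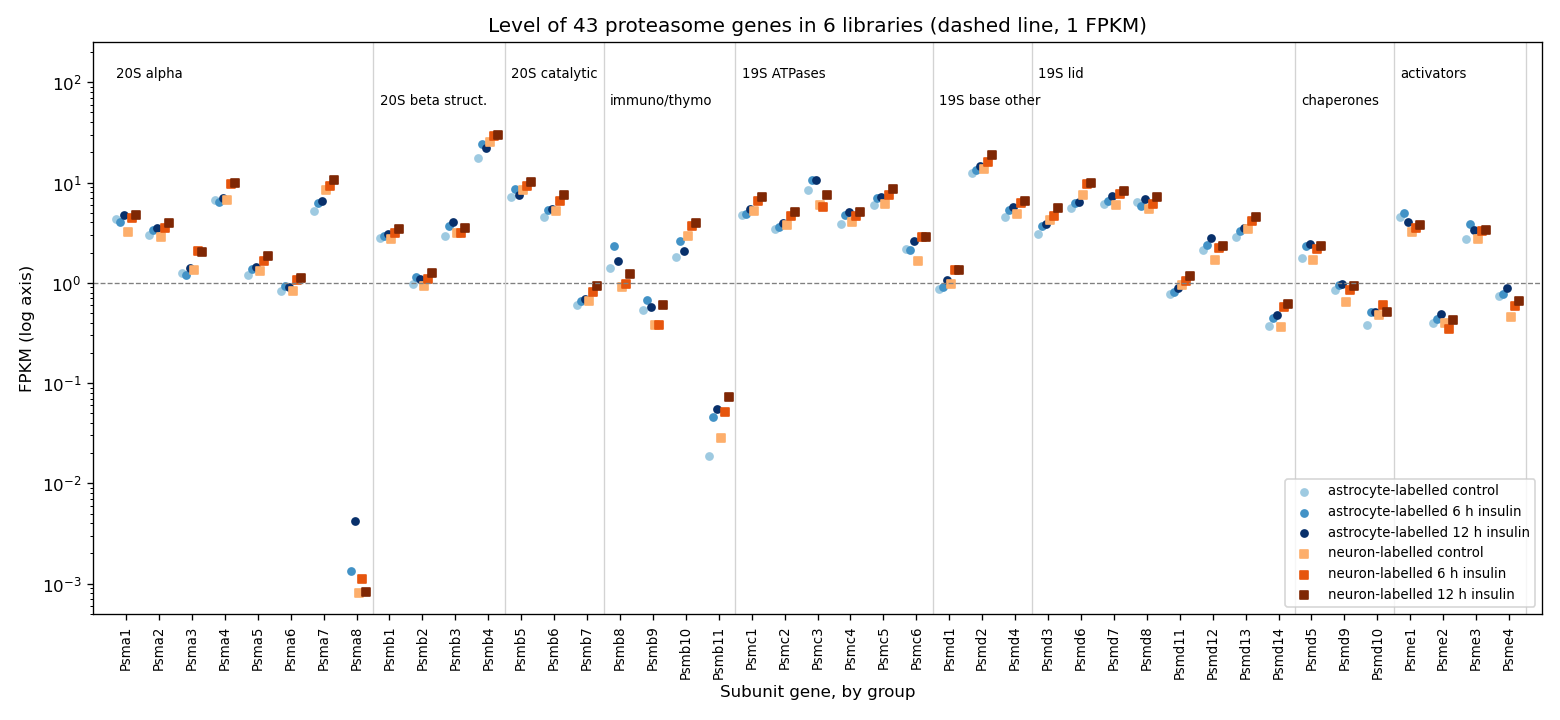
Level of each of the 43 genes (x axis, by group) in FPKM (y axis, log scale) in the 6 libraries, 1 point per library; circles are astrocyte-labelled and squares neuron-labelled libraries, darker with time. Psmb4 is the highest gene in every library, and Psma8 and Psmb11 lie far below the others.

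A further 2 genes were near the bottom of the scale. Psma8, the alpha subunit of male germ cells, was blank in the astrocyte-labelled control and at most 0.00421 FPKM elsewhere, and Psmb11, the catalytic subunit of the thymus cortex, was between 0.0187 and 0.0718 FPKM. In all, 9 genes stayed below 1 FPKM in every library: these 2, Psmb7, Psmb9, Psmd9, Psmd10, Psmd14, Psme2 and Psme4. A gene entered a comparison when neither library was blank for it and one of them reached 1 FPKM, and 30 to 34 of the 43 did so.

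Between the control libraries the proteasome genes were close to equal. Of the 30 subunits compared, 0 differed by 2-fold or more, whereas 40.6% of the 7146 genes compared did. The largest excess in the astrocyte-labelled control was that of Psmb8 at 1.40 against 0.908 FPKM, a log2 difference of 0.63. Of the 2 controls Psmb8 reached 1 FPKM only in this one, so the 1 FPKM floor itself fixed its direction. The largest excess in the neuron-labelled control was that of Psma7, an outer-ring subunit, at 8.44 against 5.16 FPKM (-0.71 as astrocyte-labelled minus neuron-labelled). The median over subunits was -0.09 and the interquartile range 0.28, against -0.10 and 1.53 for all genes compared. At a log2 difference of 0.5, 2 subunits (Psmb8 and Psmc3) were higher in the astrocyte-labelled control, against 29.6% of genes, and 3 (Psma7, Psmb10 and Psmb4) were lower, against 35.5%. The 12 further genes with a value in both controls stayed under 1 FPKM in each, and 7 of these were above 0 in the same difference. Among them Psme4 had a larger difference than Psmb8, 0.69, at 0.739 against 0.460 FPKM.

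**Figure D2:**
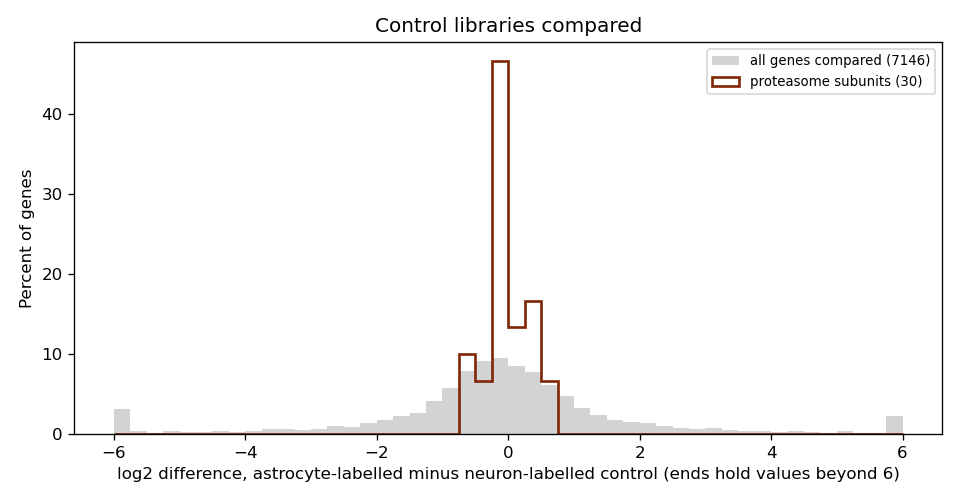
Log2 difference between the astrocyte-labelled and the neuron-labelled control (x axis) and percent of genes per bin (y axis), for all 7146 genes compared (grey) and 30 proteasome subunits (line). The subunits lie between -0.71 and 0.63, while the end bars hold genes that differ by more than 6.

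The same held when the 3 libraries of each label were set side by side. For 3 of 34 subunits the astrocyte-labelled libraries all lay above the neuron-labelled ones (background 30.6% of 7754 genes), and for 6 they all lay below (background 41.6%). The 3 were Psmb8, the ATPase gene Psmc3 and Psme1. Psmc3 was at 8.38, 10.5 and 10.7 FPKM in the astrocyte-labelled and 5.92, 5.66 and 7.56 FPKM in the neuron-labelled libraries. The 6 were Psma7, Psmb4, Psmb10 and the lid genes Psmd3, Psmd6 and Psmd11. Psmd11 stayed below 1 FPKM in the astrocyte-labelled libraries (0.772, 0.810 and 0.897 FPKM) and passed the floor only where it was higher. Psmd6 was at 5.55, 6.18 and 6.36 FPKM against 7.50, 9.58 and 10.0 FPKM. For the other 25 subunits the ranges overlapped.

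In the neuron-labelled cultures nearly all subunit genes were higher after insulin, each by a small amount. At 12 h all 43 genes, whatever their level, were above the control, against 71.2% of the 22690 genes with a value in both libraries, and their median log2 difference was 0.44 against 0.28. At 6 h 39 of 43 were above the control (73.7% of 22714 genes), and the median of 0.31 was close to the 0.29 of those genes. The exceptions at 6 h were Psme2 (-0.19), Psmc3 (-0.06), Psmb3 (-0.01) and Psmb9 (-0.01). Among genes that reached 1 FPKM, the 34 subunits compared at 12 h differed by 0.17 (Psmb3) to 0.79 (Psmc6), with a median of 0.43 against 0.14 for all 6641 genes compared, 66.1% of which were above 0. Of the 33 compared at 6 h 31 were above 0 (68.1% of 6610 genes), with a median of 0.30 against 0.14. Psma6, Psmb2, Psmd1 and Psmd11 at both times, and Psmb8 at 12 h, reached 1 FPKM only after insulin, so the floor itself fixed their direction. Single differences were small: 0 subunits reached 2-fold at either time (2.89% of all genes at 6 h and 3.84% at 12 h did in either direction). A log2 excess of 0.5 was reached by 3 of 33 at 6 h and 5 of 34 at 12 h, near the 12.4% and 15.7% of all genes that did so.

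In the same comparisons the alpha ring had the highest medians of the constitutive 20S groups. Psma3 was at 1.34, 2.05 and 2.05 FPKM in the neuron-labelled control, 6 h and 12 h libraries, so that the whole difference of 0.62 was present at 6 h. Psma4 was at 6.67, 9.64 and 9.96 FPKM and Psma1 at 3.22, 4.45 and 4.76 FPKM, and in both genes the 6 h library was nearer to the 12 h library than to the control. The median of the 7 alpha genes compared was 0.37 at 6 h and 0.47 at 12 h. The 4 structural beta genes had medians of 0.20 and 0.28. Of the catalytic genes, Psmb5 was at 8.50, 9.23 and 10.0 FPKM and Psmb6 at 5.25, 6.59 and 7.45 FPKM, in rising order of time in both. Psmb7, under the floor of 1 FPKM, was at 0.653, 0.811 and 0.936 FPKM.

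The 19S genes differed by a similar amount. Psmc6, an ATPase of the base, had the largest difference of all subunits compared at both times, with levels of 1.67, 2.84 and 2.89 FPKM in order of time. The other 5 ATPase genes had log2 differences of -0.06 to 0.32 at 6 h and 0.32 to 0.49 at 12 h. Psmc3 was at 5.92, 5.66 and 7.56 FPKM, the one ATPase gene that was lower at 6 h than in the control. The ubiquitin receptor gene Psmd4 was at 4.85, 6.26 and 6.51 FPKM, and the scaffold gene Psmd1 at 0.974, 1.34 and 1.36 FPKM. Among the 7 lid genes compared the differences ran from 0.12 to 0.40 at 6 h and from 0.31 to 0.48 at 12 h. The deubiquitinase gene Psmd14 differed by 0.67 and 0.75 from its low control level. The RefSeq table lists 46 pseudogene symbols for 18 of the 43 genes, Psmd14 and Psmc6 among them, so the values of these are uncertain where reads match a copy.

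**Figure D3:**
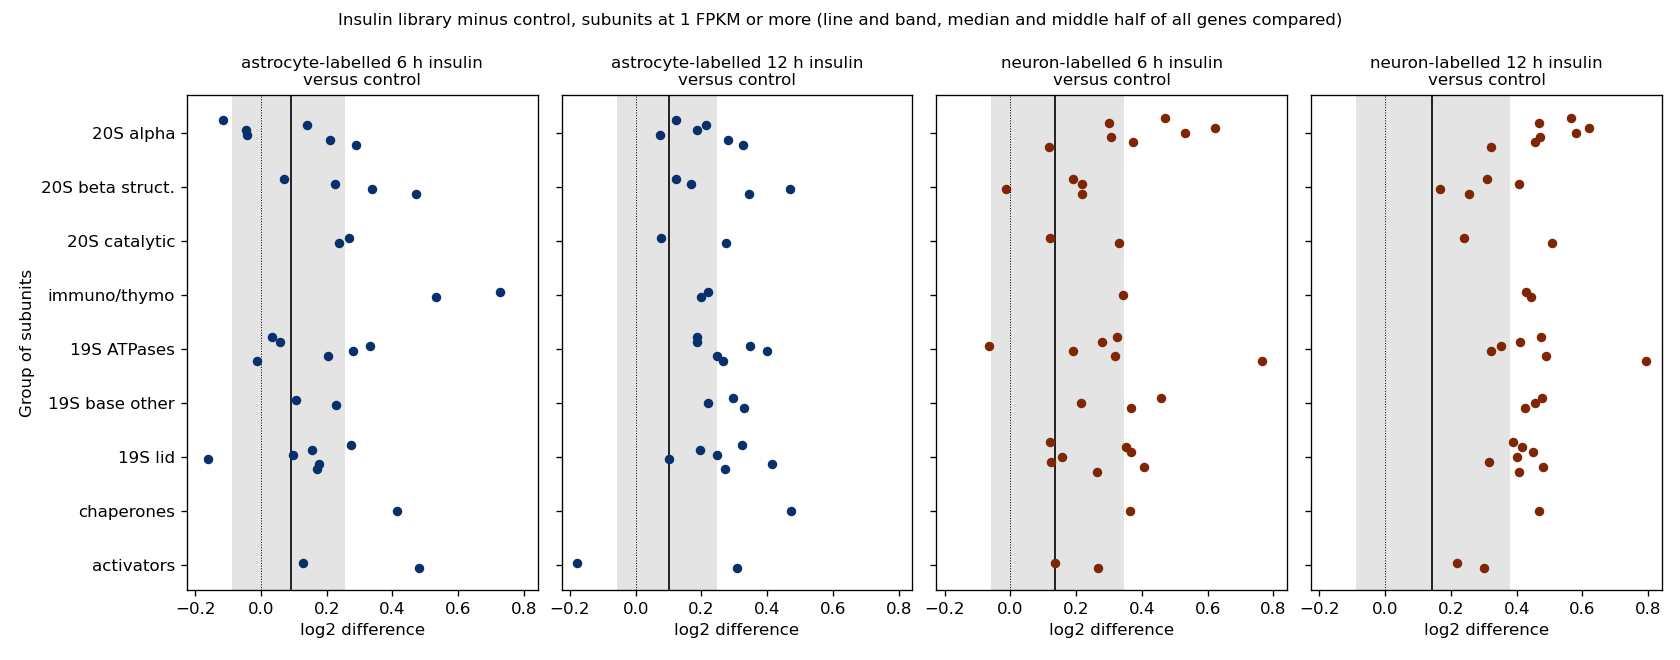
Log2 difference of each insulin library from its control (x axis) for the subunits compared, by group (y axis), 1 point per gene, in 4 panels. The vertical line and grey band are the median and interquartile range of all genes compared; at 12 h in the neuron-labelled cultures every subunit lies right of the line, and at 6 h in the astrocyte-labelled cultures Psmb8 and Psmb10 lie farthest right.

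The remaining members lay within these ranges. Psma2 and Psma5 of the outer ring were at 2.84, 3.50 and 3.93 FPKM and at 1.32, 1.63 and 1.83 FPKM in the neuron-labelled control, 6 h and 12 h libraries, and Psmb1 of the inner ring was at 2.76, 3.15 and 3.42 FPKM. The ATPase genes Psmc1, Psmc2, Psmc4 and Psmc5 were likewise in rising order in both cell types, with 12 h differences of 0.32 (Psmc4) to 0.49 (Psmc5) in the neuron-labelled and 0.19 (Psmc1) to 0.40 (Psmc4) in the astrocyte-labelled cultures. The lid genes Psmd12 and Psmd13 differed by 0.48 and 0.41 at 12 h in the neuron-labelled and by 0.41 and 0.27 in the astrocyte-labelled cultures.

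The levels of the neuron-labelled cultures mostly followed the order of time. Of the 42 genes with a value in all 6 libraries, 36 were in the order control, 6 h, 12 h, against 34.1% of 19471 genes with such values. The summed level of the 20S and 19S genes was 147, 176 and 194 FPKM. Between 6 h and 12 h the median subunit differed by 0.12 against -0.007 for all genes compared, with 33 of 34 above 0 (48.3% of 6662 genes). Some marker sums moved in the same cultures. Microglia markers summed to 0.272, 0.476 and 0.858 FPKM, with 0 of 7 at 1 FPKM or more. Smooth muscle and pericyte markers were at 4.36, 6.54 and 10.4 FPKM, of which Tagln alone was at 4.35, 6.53 and 10.3 FPKM. Neuron markers were at 50.8, 55.8 and 53.8 FPKM and astrocyte markers at 337, 354 and 317 FPKM. The part of all these markers in the proteasome differences was not tested.

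In the astrocyte-labelled cultures the subunit genes were also higher after insulin, by less. At 12 h 41 of the 42 genes with a value in both libraries were above the control (68.4% of 21542 genes), with a median of 0.25 against 0.18. At 6 h 37 of 42 were above it (66.5% of 21513 genes), and the median of 0.18 was close to the 0.16 of those genes. Among genes that reached 1 FPKM, 31 of 32 subunits were above 0 at 12 h (67.0% of 6221 genes; median 0.25 against 0.10) and 26 of 31 at 6 h (63.9% of 6206 genes; median 0.20 against 0.09). Psmb2 at both times and Psmd1 at 12 h entered only through the insulin library. Again 0 subunits reached 2-fold (1.93% of all genes at 6 h and 1.53% at 12 h). The exception at 12 h was Psme1 (-0.18). At 6 h the exceptions were Psmd8 (-0.16), Psma1 (-0.12), Psma3 (-0.04), Psma4 (-0.04) and Psmc6 (-0.01), and each of these was above 0 at 12 h. Marker sums also differed between these libraries: smooth muscle and pericyte markers were at 422, 435 and 501 FPKM, fibroblast markers at 66.2, 67.4 and 85.8 FPKM and astrocyte markers at 29.7, 34.1 and 28.5 FPKM, in order of time. Of the 8 astrocyte markers, 4 reached 1 FPKM in each of these libraries, and they went different ways. Gfap, the astrocyte filament gene, was at 6.23, 12.4 and 8.45 FPKM. Glul and Gja1 were below the control at both times, with log2 differences of -0.34 and -0.69 and of -0.13 and -0.02. Aldoc differed by 0.05 at 6 h and -0.34 at 12 h. The part of these markers in the proteasome differences was not tested.

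The members with the largest differences were other genes than in the neuron-labelled cultures. Psmb3, a structural beta gene, was at 2.93, 3.70 and 4.06 FPKM in the astrocyte-labelled control, 6 h and 12 h libraries, whereas in the neuron-labelled ones it was at 3.15, 3.12 and 3.54 FPKM. Psmc6 was at 2.16, 2.14 and 2.59 FPKM, and its 6 h library was no higher than the control. Psma4 differed from its control of 6.66 FPKM by -0.04 and 0.07 on the log2 scale. Psmd5, which chaperones the assembly of the cap's base, had the largest difference at 12 h and was at 1.75, 2.34 and 2.43 FPKM. In the neuron-labelled libraries its log2 differences were 0.36 and 0.47, close to the 0.42 and 0.47 found here. The summed level of the 20S and 19S genes was 133, 152 and 158 FPKM, and 28 of 42 genes were in the order control, 6 h, 12 h (30.6% of 19471 genes).

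The 12 h difference was larger in the neuron-labelled than in the astrocyte-labelled cultures for 33 of 42 genes, against 57.6% of 19471 genes. At 6 h it was larger for 26 of 42 (57.7%), a share near that of all genes. With 1 library per group the difference between the cell types was not tested. By group, the alpha ring medians in the astrocyte-labelled cultures were 0.05 at 6 h and 0.20 at 12 h, the structural beta medians 0.28 and 0.26, the ATPase medians 0.13 and 0.26 and the lid medians 0.16 and 0.26. Within a cell type, both times are set against 1 control library.

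In the astrocyte-labelled cultures Psmb8, Psmb9 and Psmb10 were all highest at 6 h, a course that other subunits and many other genes had too. Psmb8 was at 1.40, 2.32 and 1.64 FPKM. Psmb10 was at 1.82, 2.64 and 2.09 FPKM. Psmb9, under the floor, was at 0.530, 0.675 and 0.570 FPKM. The 6 h differences of Psmb8 (0.73) and Psmb10 (0.53) were the largest of the 31 subunits compared and the 2 that reached 0.5, a share near the 7.14% of all genes that did. At 12 h 0 of 32 reached 0.5 (5.71% of all genes). Between 6 h and 12 h Psmb8 differed by -0.51, the lowest of all subunits compared. A 6 h maximum was seen for 8 of 34 subunits (background 39.3%): Psmb8, Psmb10, Psmb5, Psmb2, Psmb4, Psma6, Psme1 and Psme3.

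In the neuron-labelled cultures the immunoproteasome genes were highest at 12 h, a course that most subunits had too. Between 6 h and 12 h 33 of 34 subunits compared were above 0 (48.3% of all genes). Psmb8 reached 1 FPKM only at 12 h, and Psmb9 in no library. Psmb8 was at 0.908, 0.968 and 1.22 FPKM, Psmb9 at 0.380, 0.377 and 0.607 FPKM and Psmb10 at 2.90, 3.68 and 3.94 FPKM. Psmb8 and Psmb9 therefore differed little from the control at 6 h, while most of the Psmb10 difference was already present. Microglia, which carry immunoproteasomes, had the marker sums given above, with 0 of 7 markers at 1 FPKM or more. C1qa, their complement gene, made up most of these sums, at 0.181, 0.275 and 0.498 FPKM. Another of the markers, Cx3cr1, went the other way, at 0.00985 and 0.00516 FPKM and blank at 12 h. The part of microglia in these differences was not tested.

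Since FPKM is scaled by length, the levels of a pair can be set against each other. Psmb8 was 0.196, 0.270 and 0.217 times the level of Psmb5 in the astrocyte-labelled control, 6 h and 12 h libraries and 0.107, 0.105 and 0.122 times in the neuron-labelled ones. Psmb9 was 0.117, 0.126 and 0.104 times the level of Psmb6, and 0.0724, 0.0572 and 0.0815 times. Psmb10 in contrast exceeded Psmb7 by 3.02, 3.98 and 3.05 times, and by 4.44, 4.53 and 4.21 times. The 3 immunoproteasome genes made up 23.4%, 27.8% and 23.8% of the summed level of the 6 catalytic genes in the astrocyte-labelled libraries and 22.5%, 23.2% and 23.9% in the neuron-labelled ones. Without the Psmb10 and Psmb7 pair these shares were 14.2%, 17.7% and 14.5%, and 8.56%, 7.83% and 9.47%. Psmb6 and Psmb7 both have pseudogene symbols, so the ratios and shares that use them are uncertain.

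**Figure D4:**
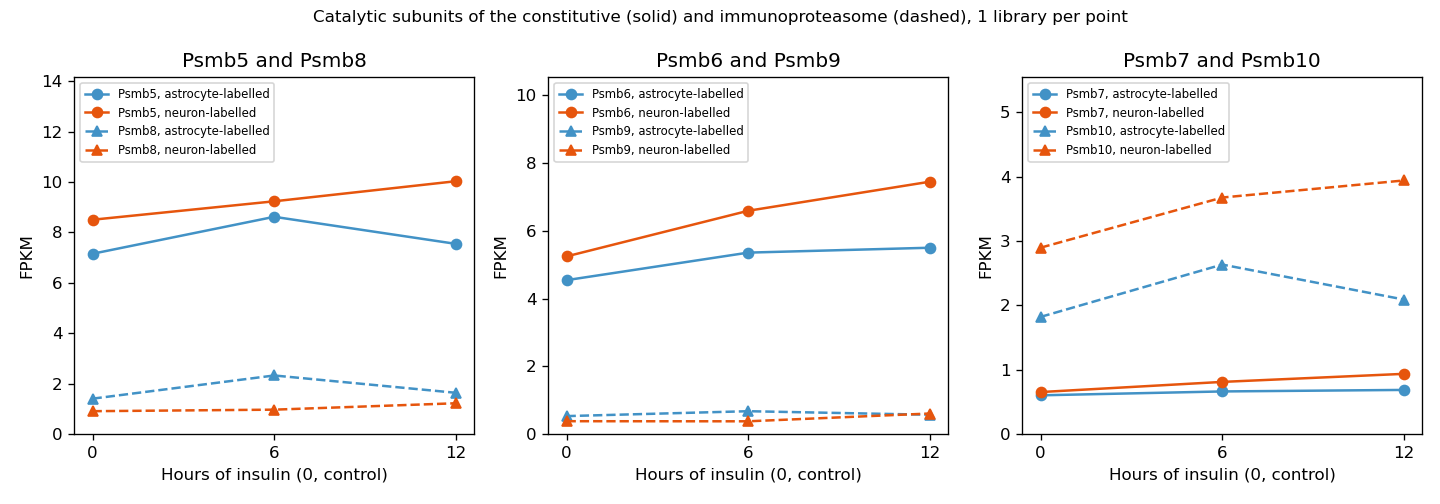
FPKM (y axis, from 0) of each constitutive catalytic gene (solid lines, circles) and its immunoproteasome counterpart (dashed lines, triangles) against hours of insulin (x axis; 0 is the control), for astrocyte-labelled (blue) and neuron-labelled (orange) cultures, 1 library per point. Psmb8 and Psmb10 peak at 6 h in the astrocyte-labelled cultures, and Psmb10 lies above Psmb7 throughout.

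The genes of the alternative caps did not move as one. Psme1 was at 4.54, 4.97 and 4.02 FPKM in the astrocyte-labelled and 3.22, 3.54 and 3.75 FPKM in the neuron-labelled libraries, so the 12 h library was the lowest in the first and the highest in the second. Its partner Psme2 was at 0.396, 0.440 and 0.485 FPKM and 0.396, 0.347 and 0.428 FPKM. Psme1 was thus 8.14 to 11.5 times higher than Psme2, although the 2 proteins form 1 ring. The pseudogene row Psme1-ps1, at 4.40 to 7.20 FPKM, was higher than Psme1 in every library, so the split of reads between them is uncertain. Psme3, whose ring works in the nucleus, was at 2.74, 3.82 and 3.39 FPKM and 2.74, 3.29 and 3.37 FPKM. Psme4 was at 0.739, 0.766 and 0.891 FPKM and 0.460, 0.584 and 0.660 FPKM. The base chaperone genes Psmd9 and Psmd10 were below 1 FPKM throughout, and each was higher in both insulin libraries than in the control of either cell type.

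Other genes of the pathway were read from lists chosen with earlier results of these data known. Among 10 proteasome-associated factors in the table, 7 were compared in each comparison, and 0 of them reached 2-fold after insulin. In the neuron-labelled cultures all 7 exceeded the all-gene median at both times, and their own medians were 0.34 and 0.40. Usp14, a deubiquitinase bound to the cap, was at 1.54, 2.27 and 2.34 FPKM there, and Txnl1, a cap-bound thioredoxin, at 2.10, 3.19 and 3.05 FPKM. In the astrocyte-labelled cultures 5 of 7 exceeded the all-gene median at each time, and their own medians were 0.13 and 0.19. The largest differences there were those of the ubiquitin receptor gene Adrm1, at 2.48, 3.49 and 3.62 FPKM, and of Zfand2a, a stress-induced partner of the cap, at 2.20, 2.62 and 3.26 FPKM. Psmf1, an inhibitor of the core, was under 1 FPKM throughout, and its log2 differences were -0.04 and -0.08 in the astrocyte-labelled and -0.04 and -0.16 in the neuron-labelled cultures.

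Of the NRF1 list, 2 of 4 genes compared were above 0 at 6 h and 1 of 4 at 12 h in the astrocyte-labelled cultures, and 1 of 3 and 2 of 3 in the neuron-labelled ones, against the shares of all genes given above. Nfe2l1 was at 17.6, 13.8 and 15.6 FPKM in the astrocyte-labelled and 13.3, 13.2 and 13.9 FPKM in the neuron-labelled libraries, so its level was lower after insulin in the first and nearly level in the second. Ddi2, the protease that releases NRF1, was at 0.830, 0.954 and 0.899 FPKM and 0.9998, 1.24 and 1.16 FPKM. In the neuron-labelled cultures Ddi2 reached 1 FPKM only after insulin, so the floor itself fixed its direction in the counts above. NRF1 is controlled largely after translation, which these data do not show. The ubiquitin shuttle and p97 genes, which bring substrates to the cap, were above 0 in 7 of 7 at both times in the neuron-labelled cultures (68.1% and 66.1% of all genes; medians 0.28 and 0.35), and 4 of 7 at 6 h and 7 of 7 at 12 h exceeded the all-gene median. Rad23b was at 3.71, 5.09 and 5.81 FPKM and Vcp at 16.5, 20.4 and 21.9 FPKM. In the astrocyte-labelled cultures 6 of 7 were above 0 at 6 h and 7 of 7 at 12 h (63.9% and 67.0% of all genes; medians 0.17 and 0.17).

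In the neuron-labelled cultures Rps27a, which encodes ubiquitin fused to a ribosomal protein and has near-identical copies, was at 60.4, 29.7 and 37.5 FPKM. Rps27a at 6 h was the one gene of these pathway lists that entered an insulin comparison and reached 2-fold there, with a log2 difference of -1.02. Of the 20S assembly chaperones in the same libraries, Psmg1 was at 1.13, 1.26 and 1.48 FPKM and Psmg3 at 4.55, 3.74 and 4.00 FPKM. Pomp, the chaperone that completes the core, was at most 0.0236 FPKM in any library. The annotation used is not given, so it is not known whether this low value reflects the level of Pomp RNA. In the neuron-labelled cultures 2 of 15 genes of antigen processing and interferon response were compared at 6 h, and 2 were above 0 (68.1% of all genes). At 12 h 4 of 4 compared were above 0 (66.1%). The 4 were Tap1 (1.16, 1.28 and 1.78 FPKM), B2m (33.6, 44.6 and 49.5 FPKM), Irf1 (0.969, 0.936 and 1.78 FPKM) and Tapbp (0.825, 0.858 and 1.08 FPKM). Irf1 and Tapbp reached 1 FPKM only at 12 h, so the floor itself fixed their direction. The rest of the list stayed under 1 FPKM in these libraries and went different ways. In the astrocyte-labelled cultures 3 of 6 genes of this list were above 0 at 6 h (63.9% of all genes) and 1 of 6 at 12 h (67.0%). The one above at both times was Tapbp, a loading factor of MHC class I, at 1.65, 2.42 and 2.22 FPKM, and the list medians were 0.06 and -0.07. In the 12 h comparison Irf1 reached 1 FPKM only in the control (1.03 against 0.995 FPKM), so the floor itself fixed its direction. Psmc3ip, which is no subunit, was at 0.925, 1.32 and 1.17 FPKM and 1.42, 1.43 and 1.68 FPKM.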

How the data were processed

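Stranded libraries of ribosome-depleted total RNA from 6 cultures were sequenced, per the labels' protocols. The authors deposited log2 FPKM values, quantile-normalised across the libraries, per the table's name; base 2 was settled from Rn45s, whose 13.67 as a natural log would exceed the library total. Partek 6.5, bcl2fastq 2.17.1.14 and the build Rnor 6.0 are named, without roles, per the submitters' processing notes; which aligner and annotation served is not given in the sources used here. Without counts the depth is unknown, so values carry no counting interval.

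There were 37185 rows for 37183 symbols; for 2 repeated symbols the row of higher mean was used, blanks were treated as no value, and 0 per-sample columns were unused. Differences were taken on the deposited scale with pandas 2.3.3, and a difference of 1 (2-fold) was the call. "Higher" and "lower" describe single libraries. In each cell type more symbols had a value after insulin than in the control, and the part of this in the differences was not tested. All-gene medians stand beside the main medians of all subunits, and not beside each median of a subunit group or other list. The members, lists, motifs and the 0.5 step were chosen with earlier results of these data known. Named were all members, list members past 2-fold and the largest differences of each list. Ddi2, Psmf1, Psmg1, Psmg3, Pomp, Vcp, Nfe2l1, Tap1, Irf1, Slc17a7, Gfap and C1qa were chosen after their values were seen. So were the markers Tagln, Myh11, Rgs5, Glul, Aldoc, Gja1, Cx3cr1, Olig1, Mog and Cspg4. Some genes of the pathway lists are not reported here and stay out of their counts. RefSeq (GRCr8) symbols matched all 45 rows read, and 38 of 43 genes had a promoter.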

Additional observations from a re-analysis of the deposited data

Results flagged for a closer look

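Of 54 genes of the lists that were compared at both times in both cell types, 30 of them subunits, 2 lay above the control at both times in one cell type and below it at both times in the other, and none of these was a subunit. The share of all genes with such opposite directions was not computed, so these counts have no background and are not read as a trait of the lists. The difference between the cell types was not tested, and the 2 times of a cell type share 1 control. B2m, the light chain of MHC class I, had log2 differences of -0.22 and -0.06 in the astrocyte-labelled and 0.41 and 0.56 in the neuron-labelled cultures at 6 h and 12 h, a gap of 0.62 at 12 h. Mafg, a partner of NRF1, had differences of 0.02 and 0.16 against -0.03 and -0.03, a gap of -0.19 at 12 h.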

How the results depend on the processing

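With 1 library per group there is no replicate spread, so a median was counted as moved past 0.1 on the log2 scale and a count or share past 1.5 times. Of 180 values under alternatives, 136 stayed within these limits, 43 moved and 1 changed sign. All insulin medians stayed above 0 in every setting. Centred on all genes compared, they were 0.113 for astrocyte-labelled 6 h (from 0.205), 0.145 for astrocyte-labelled 12 h, 0.165 for neuron-labelled 6 h and 0.285 for neuron-labelled 12 h. Centred on genes at 5 FPKM or more, the neuron-labelled medians were 0.173 and 0.283, and with log2(FPKM + 1) the 12 h median was 0.32. The median between the controls, -0.09, became 0.0185 when centred on all genes, so it has no stable direction. Without the floor 1 subunit, Psmb11 at under 0.1 FPKM, passed 2-fold in each of astrocyte-labelled 6 h and 12 h and neuron-labelled 12 h.

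Counts at 0.5 or more also moved. At astrocyte-labelled 6 h the 2 became 0 at 5 FPKM or more, with log2(FPKM + 1) and for the 20S and 19S genes alone, and 1 under either centring. At astrocyte-labelled 12 h the 0 became 1 with no floor. At neuron-labelled 6 h the 3 became 5 with no floor and 1 at 5 FPKM or more, with log2(FPKM + 1), under either centring and without genes that have a pseudogene symbol, the last a setting chosen after seeing the data. At neuron-labelled 12 h the 5 became 11 with no floor, 2 at 5 FPKM or more, with log2(FPKM + 1) and without such genes, and 1 under either centring. Between the controls the 2 higher in the astrocyte-labelled library became 1 at 5 FPKM or more and for the 20S and 19S genes, 0 with log2(FPKM + 1) and 4 when centred on all genes, and the 3 lower became 1 without genes that have a pseudogene symbol. Of subunits without overlap, the 3 higher in the astrocyte-labelled libraries became 1 at 5 FPKM or more and for the 20S and 19S genes alone.

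The immunoproteasome share without Psmb10 and Psmb7 was 14.2%, 17.7% and 14.5% in the astrocyte-labelled and 8.56%, 7.83% and 9.47% in the neuron-labelled libraries. From Psmb8 and Psmb5 alone it was 9.65%, 9.49% and 10.9% in the latter. The 6 h share was the highest astrocyte-labelled one in all 3 versions. No paired analysis was possible because each group has 1 library. Read depth, which sets the precision of the genes below 1 FPKM, is unknown.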
